A study of Homo sapiens with 4 samples.

Results

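The topoisomerases of the human nucleus and mitochondrion and the enzymes that release them from DNA were examined in MDA-MB-468, a basal-type triple-negative breast cancer (TNBC) cell line, and in its drug-resistant subline. The members were chosen by name. They are the type II enzymes TOP2A and TOP2B, the type IB enzymes TOP1 and TOP1MT, the type IA enzymes TOP3A and TOP3B, and the tyrosyl-DNA phosphodiesterases TDP1 and TDP2. All 8 were among the 20809 targets of the assay, and all 8 were among the 12118 genes with at least 10 reads in at least 2 libraries, which were tested. MDA-MB-468/R had been grown for 6 months with adriamycin (doxorubicin), cytoxan (cyclophosphamide) and taxotere (docetaxel). According to the study's methods, doxorubicin with cyclophosphamide and then docetaxel made up a treatment cycle. Doses rose stepwise, and a further month of recovery followed. MDA-MB-468/WT is the untreated parental line, although a protocol label of its samples names the same drugs. Each group had 2 libraries of bulk RNA. The sources do not say whether these came from separate cultures, so every p-value measures only the spread between libraries, which may be technical. MDA-MB-468/R, here also called the resistant line, is a single subline, and the effects of the drugs used for its selection cannot be told apart. MDA-MB-468/WT is also called the parental line.

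A topoisomerase cuts DNA, lets strands pass or turn, and seals the cut again, and while the cut is open the enzyme is joined to the DNA end through a tyrosine. Type II enzymes cut both strands, and doxorubicin acts in part by trapping them on the cut DNA. TOP2A is made mainly in dividing cells and untangles chromosomes before they separate, whereas TOP2B is made in dividing and resting cells and acts at transcribed genes and chromatin loops. TOP1 relaxes DNA ahead of polymerases, TOP1MT does so in the mitochondrion, and TOP3A and TOP3B pass single strands, TOP3B also on RNA. When an enzyme stays trapped, TDP2 opens the bond left by a type II enzyme and TDP1 the bond left by TOP1. Loss of TOP2A is a known route by which cultured cells become resistant to drugs of this class.

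The TOP2A and TOP2B promoters are shown first because the 2 type II genes, the targets of doxorubicin, are read from different upstream sequences. Each is the stretch of 250 bases that ends just before the RefSeq start of the gene, written 5′ to 3′ on the strand of the gene, from GRCh38.p14. Capitals mark CCAAT, or ATTGG where it lies on the other strand, the box that NF-Y binds and that is common before genes of dividing cells.
TOP2A, chr17:40417897-40418146, minus strand: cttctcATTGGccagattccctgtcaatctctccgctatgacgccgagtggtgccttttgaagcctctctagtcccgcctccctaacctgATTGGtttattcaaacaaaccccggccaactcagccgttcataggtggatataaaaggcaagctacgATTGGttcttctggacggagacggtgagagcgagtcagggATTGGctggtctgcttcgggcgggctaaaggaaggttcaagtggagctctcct
TOP2B, chr3:25664908-25665157, minus strand: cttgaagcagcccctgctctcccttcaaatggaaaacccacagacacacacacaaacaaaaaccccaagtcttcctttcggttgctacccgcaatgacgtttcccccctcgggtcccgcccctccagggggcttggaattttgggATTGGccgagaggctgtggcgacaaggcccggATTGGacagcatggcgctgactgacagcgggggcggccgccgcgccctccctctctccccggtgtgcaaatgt

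TOP2A held 4 copies of the CCAAT box, all on the other strand. At least 4 copies were found in 0.874% of 35116 RefSeq promoters of the same length. This TOP2B promoter held 2 copies, and at least 2 were found in 9.53% of promoters. The second RefSeq start of TOP2B and the promoters of TOP1, TOP3A, TOP3B, TDP1 and TDP2 held none, and at least 1 copy was found in 32% of promoters. The cell cycle homology element TTTGAA, searched on both strands, occurred 2 times before TOP2A and 1 time each before TOP2B and TDP1. At least 2 copies were found in 1.72% of promoters and at least 1 in 13.3%. These are letter matches in a window and say nothing of binding. Promoters were matched for 7 of the 8 members, with 2 starts for TOP2B.

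TDP2 has its start back to back with that of ACOT13, a thioesterase of acyl-CoA. The 177 bases between both starts are shown because a promoter shared by 2 genes allows their levels to be read side by side. They are written 5′ to 3′ on the TDP2 strand, and capitals mark the GC box, GGGCGG or CCGCCC on the other strand.
TDP2 and ACOT13, chr6:24666900-24667076, minus strand: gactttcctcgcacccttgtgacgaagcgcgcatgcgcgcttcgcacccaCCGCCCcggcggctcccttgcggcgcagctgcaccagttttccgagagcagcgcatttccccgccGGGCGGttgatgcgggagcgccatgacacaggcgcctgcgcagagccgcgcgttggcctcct

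RNA was measured with the Ion AmpliSeq Transcriptome kit, which reads a short amplicon per gene, so values of a gene are compared between libraries and not between genes. The authors deposited log2 of RPM plus 1, where RPM is the reads of a gene scaled to the same library total throughout. The reads recovered from these values numbered 6839939 to 7979992 per library, and the floor of 3 reads lay at 0.376 to 0.439 RPM. The resistant replicates lay farther apart than the parental replicates, with an SD over tested genes of 0.355 against 0.210 for the log2 difference between the replicates. EPCAM, a surface protein of epithelial cells, was at 599 to 786 RPM in all 4 libraries, and ESR1 was at no more than 3.23 RPM. The leukocyte genes PTPRC and CD3E and the fibroblast genes DCN and PDGFRB were at 0 reads in every library, and CD14 was at 70.5 to 84.6 RPM. Of the 6 fibroblast markers COL1A1 passed the read filter, at 13.8 and 10.5 RPM in the resistant line and at 16.9 and 17.5 RPM in the parental line (log2 fold change -0.48, limma adjusted p = 0.122), and COL1A2, COL3A1 and LUM had 0 to 6 reads per library. Of the 4 endothelial markers 2, CDH5 and KDR, were called lower in the resistant line, with all 4 markers summing to at most 3.13 RPM against 8.46 and 9.50 RPM and VWF at 0. The KDR call ended with any 1 library left out. The CDH5 call ended without either one of the parental libraries, where far fewer of all tested genes were called. The part of these endothelial genes in the values of the members was not tested. Of the 8 epithelial markers 1, KRT5, was called lower in the resistant line, with a log2 fold change of -0.77 and a limma adjusted p of 0.00210. This call ended with no filter on low values (limma adjusted p = 0.0624). It also ended without parental replicate 1 or 2, where far fewer of all tested genes were called. In 6 of the 8 epithelial markers both resistant libraries lay below and in 0 above, against 32.2% and 26.1% of all tested genes. The median log2 fold change of the 8 was -0.20.

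Of the 8 members 1, TOP1MT, was called, and it was higher in the resistant line. Of the other 7 none passed in limma at an unadjusted p of at most 0.05 either, a rule by which 12.2% of tested genes were higher and 19.1% lower. They did not pass in limma-voom on recovered reads, which called 5.44% higher and 11% lower, while a random sampling model after the test the study names, which assumes counting noise alone, called TOP1 and TDP2 higher in addition. That model called 24% of all tested genes higher and 29.4% lower, so 3 of 8 members stand beside a large share of all genes. The call was a limma p, adjusted over all 12118 tested genes, of at most 0.05, and by this rule 5.36% of tested genes were higher and 10.6% were lower. With a fold change of at least 2.5 in addition, 0 of the 8 members passed, against 0.809% of tested genes higher and 2.45% lower. Both resistant libraries lay above both parental libraries for 3 members, TOP1, TOP1MT and TDP2, against 26.1% of tested genes. They lay below for 0 members, against 32.2% of tested genes. The median log2 fold change was 0.13 over the 8 members, 0.085 without TOP1MT, and -0.03 over all tested genes. In bulk RNA, fewer cells with a gene on and less RNA per cell cannot be told apart.

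TOP2A, the main target of doxorubicin in dividing cells, was at 214 and 273 RPM in the resistant line and at 255 and 245 RPM in the parental line. The parental libraries lay between the resistant libraries. The mean was 244 ± 41.8 RPM in the resistant line and 250 ± 7.37 RPM in the parental line (SD, n = 2 each). The fold change was 0.969, and its 95% interval ran from 0.783 to 1.20 (limma adjusted p = 0.852). All fold changes are on the scale of log2(RPM + 1), which understates the change of low genes. Without resistant replicate 1 the log2 fold change was 0.13, and without replicate 2 it was -0.22, so the direction was set by which library was kept.

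TOP2B, which shares its catalytic design with TOP2A, was at 57.5 and 98.0 RPM in the resistant line and at 81.7 and 76.2 RPM in the parental line. Again the lowest and the highest of the 4 libraries were both resistant ones. These differed by 0.76 on the log2 scale, more than the resistant replicates differed in 96.2% of tested genes. The fold change was 0.953 with a 95% interval of 0.660 to 1.37 (limma adjusted p = 0.869). The log2 fold change was 0.31 without resistant replicate 1 and -0.45 without replicate 2. The interval of TOP2B was thus wider than that of TOP2A.

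TDP2, which frees DNA ends from trapped TOP2, was at 132 and 158 RPM in the resistant line and at 128 RPM in both parental libraries. Both resistant libraries were the higher ones. The log2 fold change was 0.18 with a 95% interval of -0.10 to 0.45, a fold change of 1.13 (limma adjusted p = 0.360). Without resistant replicate 1 it was 0.30 and was called. In that fit the spread came from the parental replicates alone, which had equal TDP2 values. Without resistant replicate 2 the log2 fold change was 0.05. ACOT13, across the shared interval, was at 143 and 116 RPM in the resistant line and at 127 and 139 RPM in the parental line, with overlapping groups and a log2 fold change of -0.045 (limma adjusted p = 0.852). In resistant replicate 1 TDP2 was the lower and ACOT13 the higher of the replicate values, and in replicate 2 the reverse held.

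**Figure D1:**
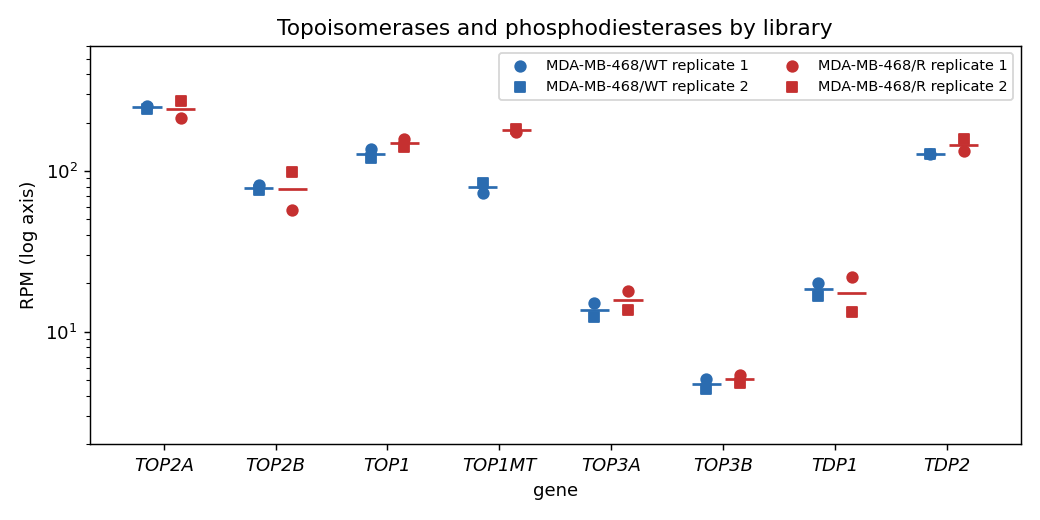
RPM of the 8 members in each library on a log axis, with circles for replicate 1, squares for replicate 2 and bars for group means (parental line left in each pair, resistant line right, n = 2 each). The groups stand well apart for TOP1MT, with 174 and 184 RPM against 73.5 and 84.6 RPM, while the resistant points of TOP2B spread from 57.5 to 98.0 RPM around those of the parental line.

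TOP1, the nuclear type IB enzyme and target of the camptothecins, which were not used here, was at 159 and 141 RPM in the resistant line and at 136 and 121 RPM in the parental line. Both resistant libraries lay above both parental libraries, though the nearest values were 141 and 136 RPM. The log2 fold change was 0.22 (SE 0.12) with a 95% interval of -0.05 to 0.49 (limma adjusted p = 0.247). TOP1 has pseudogene copies that were targets too, and TOP1P1 had 2 to 5 reads per library and TOP1P2 had 0. The amplicon sequences are not given in the sources used here, so whether the reads of TOP1 include copies of its pseudogenes was not tested.

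TDP1, which frees DNA ends from trapped TOP1, was at 21.8 and 13.2 RPM in the resistant line and at 20.1 and 16.6 RPM in the parental line. The resistant libraries again held both the highest and the lowest value, and their distance of 0.68 on the log2 scale was larger than that of 94.0% of tested genes. The fold change was 0.933 with a 95% interval of 0.632 to 1.38 (limma adjusted p = 0.820). Its direction turned with the library left out, from -0.44 without resistant replicate 1 to 0.24 without replicate 2 on the log2 scale. The high library was replicate 1 for TDP1 and replicate 2 for TOP2A, TOP2B and TDP2.

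TOP1MT, the mitochondrial type IB enzyme, was at 174 and 184 RPM in the resistant line and at 73.5 and 84.6 RPM in the parental line. The groups were far apart, and the replicates differed by 0.08 in the resistant and by 0.20 in the parental line on the log2 scale, the latter more than in 74.3% of tested genes. The means were 179 ± 7.05 and 79.1 ± 7.84 RPM (SD, n = 2 each). The log2 fold change was 1.17 (SE 0.12) with a 95% interval of 0.90 to 1.44, a fold change of 2.25 with an interval of 1.87 to 2.71 (limma adjusted p = 0.000855). This value lay at percentile 98.8 of the log2 fold changes of all tested genes. Without parental replicate 1 the log2 fold change was 1.07, and without parental replicate 2 it was 1.27. The call ended with either parental library left out, while the direction did not turn. In these fits the spread came from the resistant replicates alone, and far fewer of all tested genes were called.

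TOP3A, which dissolves joined DNA strands with BLM, was at 17.9 and 13.6 RPM in the resistant line and at 15.1 and 12.4 RPM in the parental line. The fold change was 1.13 with a 95% interval of 0.826 to 1.55 (limma adjusted p = 0.582). TOP3B had few reads, 35 to 38 per library, and was at 5.41 and 4.78 RPM in the resistant line and at 5.11 and 4.39 RPM in the parental line. The groups overlapped for both genes. The TOP3B fold change was 1.06 with a 95% interval of 0.765 to 1.47 (limma adjusted p = 0.817).

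**Figure D2:**
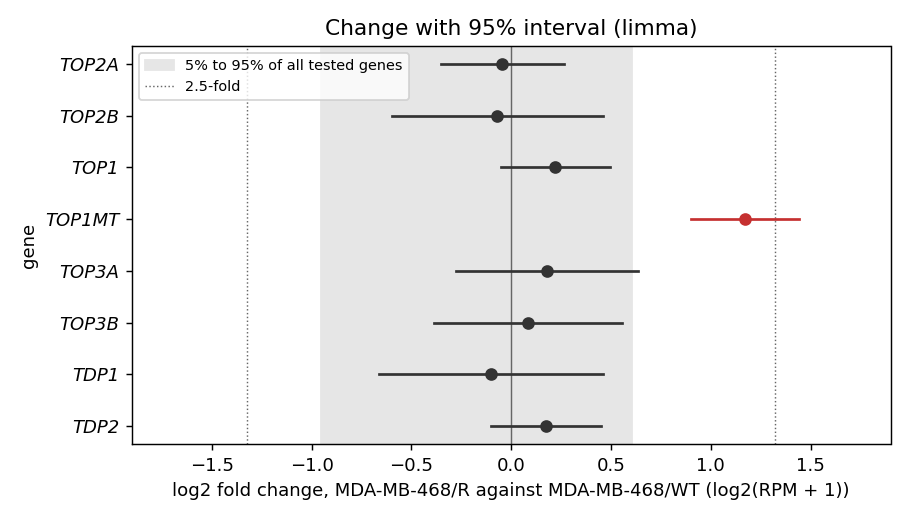
Log2 fold change of each member, resistant against parental line, with its 95% limma interval. The red point is the called member, grey shading spans the 5% to 95% range of all tested genes and dotted lines mark 2.5-fold. TOP1MT, at 1.17, is the member whose interval leaves out 0, and the intervals of the other 7 include 0.

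Differences between paired members within a library depend little on how the library was scaled. TOP2A minus TOP2B on the log2 scale was 1.88 and 1.47 in the resistant line and 1.63 and 1.67 in the parental line, so the balance of both type II genes overlapped between groups, with a mean change of 0.025. TOP1 minus TOP1MT was -0.13 and -0.38 in the resistant line and 0.88 and 0.51 in the parental line, a change of -0.95 without overlap. TOP3A minus TOP3B was 1.56 and 1.34 against 1.40 and 1.31, and TDP1 minus TDP2 was -2.55 and -3.48 against -2.61 and -2.87. The lowest TDP1 minus TDP2 value, -3.48, was that of resistant replicate 2, in which TDP1 was low and TDP2 high. Exact permutation tests (two-sided, 2 against 2 libraries) cannot give a p below 0.333 here. The exact permutation p was 0.333 for TOP1 and TOP1MT, 0.667 for TOP3A and TOP3B, and 1 for each of the other 2 pairs.

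Repair of a trapped TOP2 needs more than TDP2. Ligases of SUMO and ubiquitin mark the protein, nucleases and proteases trim it, and end joining seals the break. Of the 18 tested genes of this list 1, LIG4, was called, in the lower direction, against 10.6% of all tested genes. The list median log2 fold change was -0.045. LIG4, the ligase of end joining, was at 20.6 and 17.6 RPM in the resistant line and at 38.9 and 37.9 RPM in the parental line, a log2 fold change of -0.98 (limma adjusted p = 0.00514). ZNF451, a SUMO ligase that aids TDP2, was at 13.03 and 17.25 RPM against 21.94 and 19.97 RPM (log2 fold change -0.46, limma adjusted p = 0.134). RNF4, which adds ubiquitin to SUMO-marked proteins, was at 119 and 107 RPM against 142 and 137 RPM (log2 fold change -0.30, limma adjusted p = 0.103). Neither passed the test, and both lay below the parental line in both libraries. In all, 7 of the 18 list genes lay below and 3 above, against 32.2% and 26.1% of all tested genes.

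Breaks left by TOP1 are found by PARP1, trimmed by nucleases, and sealed by LIG3 with XRCC1. Of the 12 genes of this list 10 were tested and 2 called, both lower, against 10.6% of all tested genes. The list median log2 fold change was -0.10. APLF, a scaffold of end joining that binds poly(ADP-ribose), was at 2.14 and 3.14 RPM in the resistant line and at 9.20 and 10.2 RPM in the parental line (log2 fold change -1.56, limma adjusted p = 0.00423). PARP1, an abundant break sensor, was at 287 and 319 RPM in the resistant line and at 392 and 390 RPM in the parental line (log2 fold change -0.37, limma adjusted p = 0.0451). This call was near the threshold and ended with the libraries scaled by median of ratios (limma adjusted p = 0.0669) or upper quartile (0.0706) and with the replicate block (0.0961). ERCC1, part of a nuclease that trims break ends, had a log2 fold change of 0.28 (limma adjusted p = 0.254).

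TOP3A works with BLM, RMI1 and RMI2, and TOP3B with TDRD3 and FMR1. None of these genes or ERCC6L was called among the 6 tested, with 4 below and 0 above the parental line in both libraries, beside 32.2% and 26.1% of all tested genes, and a median log2 fold change of -0.26. FMR1, an RNA-binding protein, was at 158 and 151 RPM in the resistant line and at 194 RPM in both parental libraries (limma adjusted p = 0.0614). RMI2 was at 10.6 and 10.5 RPM in the resistant line and at 17.4 and 14.7 RPM in the parental line (limma adjusted p = 0.0657). At an unadjusted p of at most 0.05, 3 of the 6 passed in limma, all lower, beside 19.1% of all tested genes. They were FMR1, RMI2 and RMI1, the last of which was named after its values were seen. The random sampling model called 3 lower, beside 29.4% of all tested genes, and limma-voom 0, beside 11%. Without resistant replicate 1 the median log2 fold change of the 6 was -0.27, and without replicate 2 it was -0.31.

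TOP2B sits at chromatin loop anchors with CTCF and cohesin. Of the 6 tested genes 1 was called higher and 1 lower, against 5.36% and 10.6% of all tested genes. Both called genes are cohesin subunits. RAD21, the ring-closing subunit, was at 718 and 866 RPM in the resistant line and at 451 RPM in both parental libraries, a log2 fold change of 0.81 (limma adjusted p = 0.00446). SMC1A, a cohesin ATPase, was at 118 and 121 RPM against 173 and 194 RPM, a log2 fold change of -0.61 (limma adjusted p = 0.0101). STAG1 and STAG2, which hold alternative places in the same complex, had log2 fold changes of 0.13 and -0.46 and did not pass.

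TOP2A shares the axis of mitotic chromosomes with the condensins and KIF4A. Of these 9 tested genes 1 was called, in the lower direction, against 10.6% of all tested genes. The median log2 fold change of the 9 was -0.095. KIF4A, a motor that brings condensin to the chromosome axis, was at 58.3 and 74.6 RPM in the resistant line and at 114 and 103 RPM in the parental line (log2 fold change -0.70, limma adjusted p = 0.0171). The condensin genes NCAPH2 and NCAPD2 were at log2 fold changes of 0.39 and 0.17 and did not pass.

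Because TOP2A RNA rises in the G2 phase of the cell cycle, genes of division were set beside it. Of 16 tested genes of G2 and mitosis, 0 were called in either direction, and at an unadjusted p of at most 0.05 limma passed 4, all lower, beside 19.1% of all tested genes. The random sampling model called 1 higher and 8 lower, beside 24% and 29.4% of all tested genes, and limma-voom on recovered reads called 0. The median log2 fold change of the 16 was -0.0825. It was -0.1175 without resistant replicate 1 and -0.0725 without replicate 2. In 7 both resistant libraries lay below and in 2 above, against 32.2% and 26.1% of all tested genes. The summed level of the 16 genes was 2341 and 2391 RPM in the resistant line and 2629 and 2628 RPM in the parental line. MKI67, a marker of dividing cells, was at 73.5 and 84.6 RPM against 114 and 96.7 RPM (limma adjusted p = 0.0793), and UBE2C, which drives exit from mitosis, was at 339 and 390 RPM against 451 and 483 RPM (limma adjusted p = 0.0638). Of 15 genes of DNA replication 2 were called, both lower, against 10.6% of all tested genes, and the median log2 fold change was 0.09. In 6 of the 15 both resistant libraries lay above and in 3 below. The random sampling model called 7 higher and 4 lower, beside 24% and 29.4% of all tested genes, so the direction of the count turned with this model. The list median was 0.005 without resistant replicate 1 and 0.17 without replicate 2. PCNA, the sliding clamp, was at 174 and 184 RPM against 268 and 241 RPM (log2 fold change -0.50, limma adjusted p = 0.0178), and GINS1, part of the replicative helicase, had a log2 fold change of -0.85 (limma adjusted p = 0.0122). TYMS and MCM6, with log2 fold changes of 0.32 and 0.23, did not pass. The part of cell division in the TOP2A level was not tested.

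**Figure D3:**
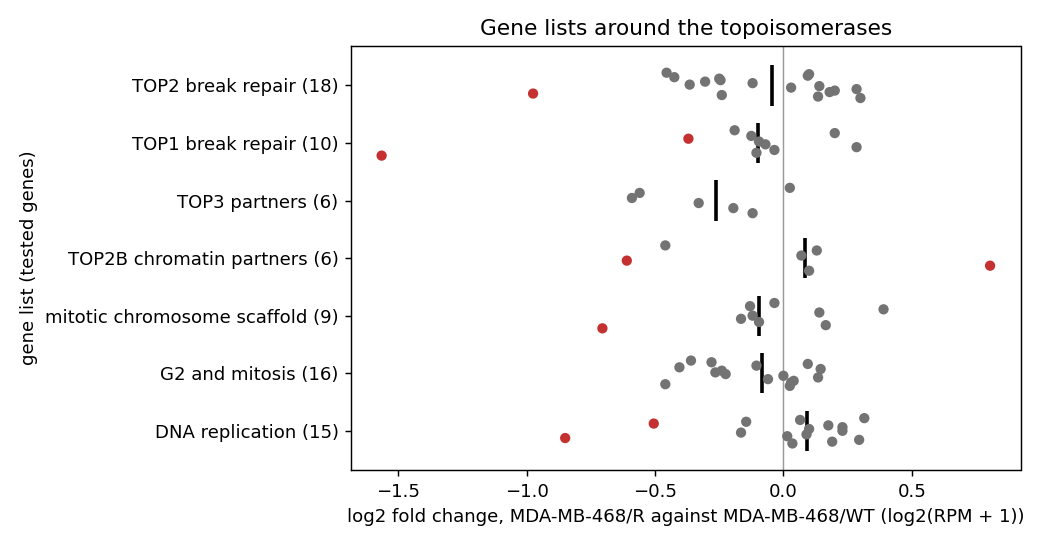
Log2 fold change, resistant against parental line, of each tested gene of 7 lists, with called genes in red and a black bar at the list median. The medians lie between -0.26 and 0.09, and the called genes furthest from 0 are APLF at -1.56 and LIG4 at -0.98.

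Across the 7 lists together, 1 of 80 tested genes was called higher and 7 lower, beside 5.36% and 10.6% of all tested genes, and the median log2 fold change was -0.065. Without either one of the parental libraries none of these 8 calls was made, and far fewer of all tested genes were called there too. Without resistant replicate 1 the calls of KIF4A, PCNA and SMC1A ended (limma adjusted p = 0.0540, 0.0620 and 0.0538), and without replicate 2 those of GINS1, PCNA and SMC1A did (0.0553, 0.0522 and 0.0515). Other genes were gained in these fits, where the spread came from the parental replicates alone. With no filter on low values all 8 calls ended (limma adjusted p = 0.0799 to 0.206).

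The genes on either side of each member were compared next, 10 tested genes on each side in the RefSeq gene order. Among the 20 neighbours of TOP1MT 9 were called, all higher, against 5.36% of all tested genes and 22.3% of those on chromosome 8. The 20 had a median log2 fold change of 0.72. In 15 of the 20 both resistant libraries lay above both parental libraries and in 1 below, against 26.1% and 32.2% of all tested genes. LY6E, a surface protein, was at 643 and 518 RPM in the resistant line and at 222 and 213 RPM in the parental line, a log2 fold change of 1.41 (limma adjusted p = 0.000536). EEF1D, an elongation factor subunit, was at 854 and 814 RPM against 454 and 467 RPM, a log2 fold change of 0.86 (limma adjusted p = 0.00129). These neighbours, which were named after their values were seen, lie on chromosome 8, as TOP1MT does. At the other end of the range C8orf73 was at 1 and 0.815 RPM against 1.75 and 2.25 RPM, with a log2 fold change of -0.65 that did not pass. The 9 calls became 6 without resistant replicate 1 and 8 without replicate 2. All 9 calls ended without either one of the parental libraries, where far fewer of all tested genes were called, with medians of 0.57 and 0.80. The part of the neighbourhood in the TOP1MT level was not tested, and gene copy number was not measured.

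For the neighbours of the other 7 members, the median log2 fold changes were -0.045 for TOP2A, 0.05 for TOP2B, -0.24 for TOP1, -0.085 for TOP3A, -0.092 for TOP3B, 0.025 for TDP1 and -0.052 for TDP2, and between 0 and 3 of 20 were called in any one direction. None of these was called without either one of the parental libraries, where far fewer of all tested genes were called. Over all tested genes 5.36% were called higher, 10.6% were called lower and 32.2% lay below in both libraries. TOP1 was at 0.22 while 3 of its 20 neighbours were called, all lower, beside 13.6% of tested genes on chromosome 20 called lower. Of these 20 neighbours 10 lay below in both libraries. The median of the TOP1 neighbours was -0.11 without resistant replicate 1 and -0.26 without replicate 2. The nearest annotated gene passed the read filter in 2 cases, ACOT13 beside TDP2, given above, and SMCR7 (MIEF2) beside TOP3A, with a log2 fold change of -0.33 and overlapping groups (limma adjusted p = 0.448).

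**Figure D4:**
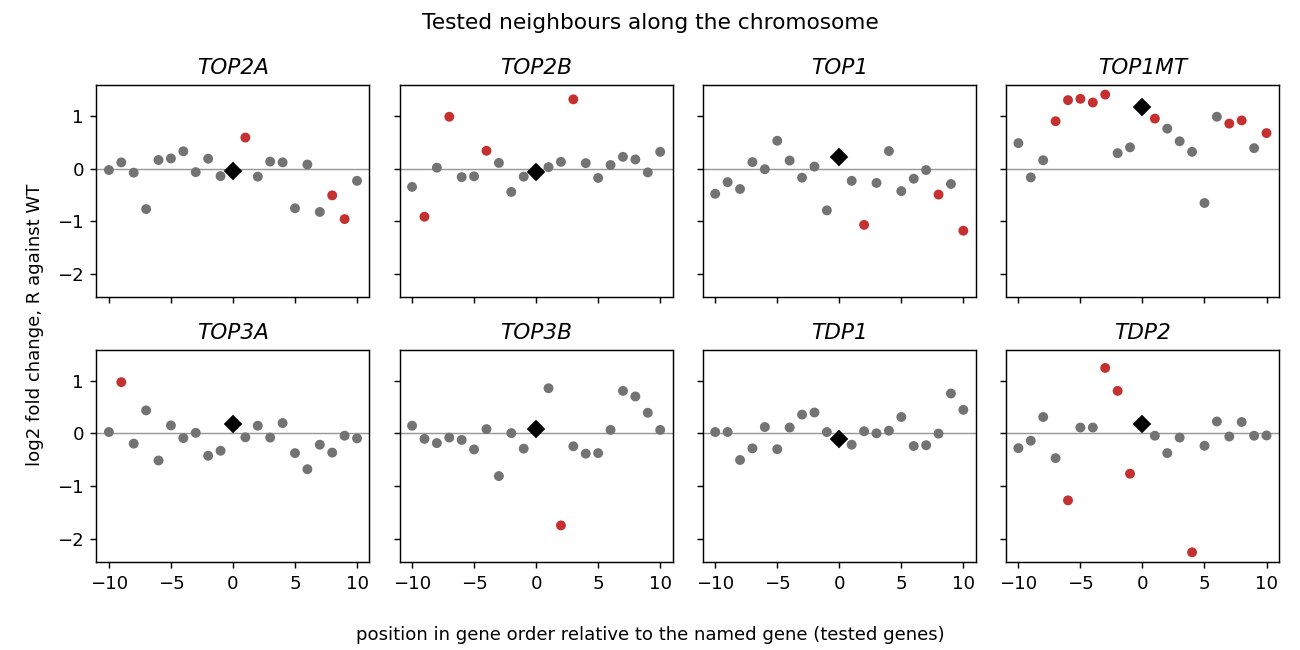
Log2 fold change, resistant against parental line, of each member (black diamond) and of the 10 tested genes on each side in gene order, with called genes in red. Around TOP1MT 18 of 20 neighbours lie above 0, while the points around the other members fall on both sides of 0.

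The genes whose pattern over the 4 libraries lay nearest to that of TOP2A, by Euclidean distance between centred log2 values among 10180 genes with a mean of at least 5 RPM, were NOP10, STAM2 and FRS2. Their distances were 0.0141, 0.0166 and 0.0218. NOP10, for example, was at 259 and 330 RPM in the resistant line and at 306 and 297 RPM in the parental line. For TOP2B they were ITGAE, HAT1 and PSMC6, at 0.0497, 0.0589 and 0.0648, and HAT1 was at 131 and 214 RPM in the resistant line and at 178 and 163 RPM in the parental line. In all 6 genes resistant replicate 1 was the lowest and replicate 2 the highest library, as in TOP2A and TOP2B, which the choice by likeness favours.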

How the data were processed

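The data were 2 libraries of the resistant and 2 of the parental line. Per the study's methods, reads were aligned with the Torrent Mapping Alignment Program and DEGs called with DEGSeq. Bowtie2, bedtools and edgeR stand in the submitters' processing notes. The genome build is not given in the sources used here. The authors deposited log2 values of RPM plus 1, rounded to 2 decimals. From these, RPM and whole reads were recovered, and all values of up to 20 reads came out whole within 0.1. Tests used the deposited log2 values in limma 3.58.1 under R 4.3.3, with group as the term and an empirical Bayes step with mean trend, with 2 residual and 5.40 prior degrees of freedom, for genes with at least 10 reads in at least 2 libraries, with Benjamini-Hochberg adjustment. The fit was tested on simulated data. Members and gene lists were chosen with earlier results of these data known. All members were named, and up to 4 genes per list, first the called genes with the largest change and then those with the smallest p. Some genes that this rule names are not reported here. Of the targets, 19855 of 20809 matched a RefSeq gene, which gave gene order and promoters. Alternatives were other filters, pseudocounts, scalings, limma-voom on recovered reads, a random sampling model, an unadjusted p, the study's 2.5-fold threshold, a replicate block and leaving out each library. Intervals cover the spread between these libraries, and the floor of 3 reads covers counting error only. The other cell line pairs of the study were not analysed here.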

Additional observations from a re-analysis of the deposited data

How the results depend on the processing

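With 2 libraries per group, small changes cannot be seen, and where 1 library was left out the lone library of its group was assumed to vary like the other group. Against 649 genes called higher and 1290 lower, the counts were 112 and 163 with no filter on low values, 2904 and 3564 with the random sampling model, 1480 and 2310 at an unadjusted p, 98 and 297 with the 2.5-fold threshold, and 9 to 751 and 48 to 1305 with 1 library left out. Among the members, 1 was called higher with the main test, 0 with no filter, 0 at 2.5-fold, 3 with the random sampling model (TOP1, TOP1MT and TDP2) and 0 to 2 with 1 library left out. TOP1MT kept its direction throughout, and its limma adjusted p was 0.0629 with no filter. Its call held with either resistant library left out and ended with either parental library left out. With the replicate block, 497 genes were called higher and 1114 lower, and TOP1MT was still called (limma adjusted p = 0.0016). Over the tested genes the log2 difference between replicates 1 and 2 was almost uncorrelated between the 2 lines (correlation 0.00868). This value cannot show whether same-numbered libraries were handled together. Except for PARP1, named above, the block changed no call among the members and list genes named. The factors of the other scalings raised the resistant against the parental libraries by 0.035 to 0.047 (log2). The causes were not tested.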

Other observations

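Genes that keep mitochondrial DNA were set beside TOP1MT, as a list written after the TOP1MT value was seen, so it is given without a test. Over its 8 genes the log2 fold change ranged from -0.26 to 0.54 with a median of 0.01. C10orf2 (TWNK), the mitochondrial helicase, was at 26.9 and 33.3 RPM in the resistant line and at 21.9 and 18.6 RPM in the parental line. TFAM, which packs mitochondrial DNA, was at 80.6 and 105 RPM against 78.9 and 73.5 RPM. POLG, the mitochondrial DNA polymerase, was at 32.4 and 28.4 RPM against 32.8 and 34.5 RPM. C20orf72 (MGME1), the lowest of the 8 at -0.26, was at 18.2 and 21.5 RPM against 21.6 and 26.3 RPM. In 2 of the 8 genes both resistant libraries lay above the parental line, in 2 they lay below, and 4 overlapped. Over all tested genes 26.1% lay above and 32.2% below.

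The partner and cell cycle genes were also sorted by chromosome, and chromosomes 8, X and 20 were picked after their values were seen. Over all tested genes both resistant libraries lay above for 26.1% and below for 32.2%. On chromosome 8 lie RAD21, NBN, PRKDC and MCM4, and in all 4 both resistant libraries were above both parental libraries, 1 of them, RAD21, being called. On the X chromosome lie SMC1A, STAG2, KIF4A, FMR1 and ERCC6L, and in all 5 both resistant libraries were below, with SMC1A and KIF4A called. On chromosome 20 lie PCNA, GINS1, UBE2C, TPX2 and AURKA, of which 4 were below, AURKA overlapped, and PCNA and GINS1 were called. Of all tested genes, 22.3% of 382 on chromosome 8 were called higher and 7.33% lower, 2.11% of 380 on the X chromosome higher and 36.6% lower, and 3.47% of 317 on chromosome 20 higher and 13.6% lower. Without either one of the parental libraries, of all genes far fewer were called, and the shares were 0.262% lower on chromosome 8, 1.58% lower on the X chromosome and 0.631% lower on chromosome 20, with none higher. The chromosome medians then stayed near their values, at 0.115 and 0.10 for chromosome 8 against 0.135, and at -0.44 and -0.46 for the X chromosome against -0.45. TOP1, also on chromosome 20, was at a log2 fold change of 0.22. Whether a gene's place on its chromosome has a part in its level was not tested.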
